A study of Drosophila melanogaster with 30 samples.

Results

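The genes described here are the small heat shock protein genes of the Drosophila 67B cluster: Hsp22, Hsp23, Hsp26, Hsp27, Hsp67Ba and Hsp67Bc, 6 of the 17562 genes in the deposited counts. They were chosen by name, and 5 of the 6 had any counts. The study asked how dTrmt10A (CG14618), the fly homolog of a tRNA methyltransferase, affects m6A, the methylation of adenosine within RNA, at rest and after heat stress. Male flies were collected 1 to 2 days after eclosion, and their heads were pooled, 200 to a replicate. The age at collection need not be the age at harvest. In the paper's stress sensitivity assay, adults were aged to 6 days after eclosion before heat. All flies carried daGal4, a driver active in nearly all tissues. In control flies it was crossed to the KK control line, in knockdown flies to dTrmt10A RNAi of the same KK collection, and in upregulated flies to a UAS-dTrmt10A transgene. The UAS-dTrmt10A flies therefore differed from the control flies in genetic background as well as in dTrmt10A, and these cannot be told apart. Heads were taken in basal conditions from the 3 genotypes, and directly after heat shock (HS) of 30 min at 38.5 °C from control and UAS-dTrmt10A flies, which gives 5 groups of 3 replicates.

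Fragmented polyA+ RNA of each replicate was sequenced as input, which measures RNA level, and after immunoprecipitation with an m6A antibody (IP), which gives 30 libraries. Total counts ranged from 20110909 to 51006574 in input and from 16255688 to 30456825 in IP. Input levels are given below as CPM, counts per 1000000 counts of a library scaled by TMM, a method that sets libraries to a common scale from the bulk of their genes. A floor of 3 counts corresponds to between 0.0588 and 0.149 CPM in input. The targeted gene followed the labels: input CPM of dTrmt10A was 8.09 ± 0.606 (SD, n = 3) in control basal heads, 3.86 ± 0.135 in RNAi heads and 165.9 ± 21.5 in UAS-dTrmt10A basal heads. After HS it was 5.68 ± 0.305 in control and 245.3 ± 9.15 in UAS-dTrmt10A heads. The label of heads was borne out by summed photoreceptor markers (ninaE, trp, norpA, Arr2, inaD) at 25794 CPM or more in every input, against at most 0.403 CPM for 4 testis markers. Heads hold many cell types, so fewer cells of a type and less RNA per cell cannot be told apart in any value below.

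Small heat shock proteins carry an alpha-crystallin domain, assemble into large oligomers and hold unfolding proteins in a state from which Hsp70 and its partners can refold them. They use no ATP for this. In flies their genes are transcribed within minutes of heat stress, when trimers of heat shock factor (Hsf) bind repeated 5-base units of the form NGAAN in their promoters. The proteins differ in where they work. Hsp23 and Hsp26 are cytosolic, Hsp27 is nuclear, Hsp22 is mitochondrial, and Hsp67Bc acts with the co-chaperone Starvin in autophagy.

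All 6 genes lie in the same cluster on chromosome 3L, with other genes among them (dm6, positions of the Ensembl annotation). From left to right the members are Hsp67Bc (FBgn0001229, minus strand, 9371511 to 9372497), Hsp22 (FBgn0001223, plus strand, 9372931 to 9374964) and Hsp26 (FBgn0001225, minus strand, 9376418 to 9377427). They are followed by Hsp67Ba (FBgn0001227, minus strand, 9377802 to 9379534), Hsp23 (FBgn0001224, plus strand, 9381882 to 9382765) and Hsp27 (FBgn0001226, plus strand, 9384063 to 9385694). Hsp23, Hsp26, Hsp27, Hsp67Ba and Hsp67Bc have a single exon in the annotation. Hsp22 has 3 separate exon blocks and several annotated starts, of which the one farthest downstream (9373997) was used for its promoter.

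The promoters were searched on both strands for the heat shock element core and the TATA box TATAAA. A core is a pair of facing units written GAANNTTC or TTCNNGAA, and Hsf binds repeats of such units. In windows of 250 bases before to 50 bases after the annotated start, Hsp26 held 3 cores, Hsp22 and Hsp23 held 2 each, Hsp67Bc held 1, and Hsp27 and Hsp67Ba held 0. Of 13968 promoters of protein-coding genes, 15.9% held at least 1 core in such a window. In a window of 500 bases before the start, chosen after the first window had been read, Hsp23 and Hsp26 held 4 cores each, Hsp22 held 2, Hsp27 and Hsp67Bc held 1 each and Hsp67Ba still held 0, against 25.0% of promoters with at least 1. Runs of 3 alternating GAA and TTC units were counted as well. Hsp23 held 1 in the window of 500 bases and the other members 0, against 0.644% of promoters with any. In the first window every member held 0, against 0.43% of promoters with any. TATAAA was found in the first window of 5 members and of 45.8% of promoters, and Hsp67Ba had none. A core is a description of letters and is not evidence of binding.

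The 250 bases upstream of Hsp23, Hsp26, Hsp27 and Hsp67Ba follow, read on the strand of the gene from 5′ to 3′ in the RefSeq dm6 genome sequence. They were chosen because Hsp27, Hsp26 and Hsp23 had the largest heat responses and Hsp67Ba the smallest of the 5 counted members. Hsp27 and Hsp67Ba both hold 0 cores in this window. Capitals mark heat shock element cores and TATA boxes on either strand.
Hsp23 (chr3L:9381632-9381881, plus strand): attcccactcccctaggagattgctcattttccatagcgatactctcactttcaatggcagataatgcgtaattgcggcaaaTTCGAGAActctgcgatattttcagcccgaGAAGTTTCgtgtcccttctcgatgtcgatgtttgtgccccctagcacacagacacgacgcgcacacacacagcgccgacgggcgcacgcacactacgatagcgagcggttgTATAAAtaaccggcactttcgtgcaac
Hsp26 (chr3L:9377428-9377677, minus strand): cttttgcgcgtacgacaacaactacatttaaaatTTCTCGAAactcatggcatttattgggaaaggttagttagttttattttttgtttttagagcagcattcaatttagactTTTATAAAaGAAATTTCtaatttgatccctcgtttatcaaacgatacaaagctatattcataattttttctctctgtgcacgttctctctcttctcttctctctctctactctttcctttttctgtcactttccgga
Hsp27 (chr3L:9383813-9384062, plus strand): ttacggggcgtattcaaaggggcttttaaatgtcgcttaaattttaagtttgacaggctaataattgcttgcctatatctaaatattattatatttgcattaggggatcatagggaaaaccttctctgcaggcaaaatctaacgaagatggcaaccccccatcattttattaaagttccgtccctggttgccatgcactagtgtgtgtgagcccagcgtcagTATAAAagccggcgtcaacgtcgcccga
Hsp67Ba (chr3L:9379535-9379784, minus strand): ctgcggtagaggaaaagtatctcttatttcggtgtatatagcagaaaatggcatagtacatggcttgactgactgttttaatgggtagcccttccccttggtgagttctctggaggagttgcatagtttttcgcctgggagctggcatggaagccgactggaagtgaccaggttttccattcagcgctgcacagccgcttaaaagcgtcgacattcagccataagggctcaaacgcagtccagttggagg

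The Hsp23 window holds cores that begin 168 and 138 bases before the start, and a TATA box 27 bases before it. In the Hsp26 window the cores begin 216 and 128 bases before the annotated start and TATA boxes 137 and 135 bases before it. The third core of this gene begins 3 bases and a further TATA box 24 bases past that start, outside the letters shown. The Hsp27 window holds a TATA box 28 bases before the start and no core. The Hsp67Ba window holds neither motif. It lies within an exon of the antisense RNA asRNA:CR43481, which is annotated on the other strand. The cores of the other members are shown with 10 bases on each side, with the core in capitals.
Hsp22, 188 bases before the start (chr3L:9373799-9373826, plus strand): gagagccccaGAAACTTCcacggagttc
Hsp22, 87 bases before the start (chr3L:9373900-9373927, plus strand): aaagggcgaaGAAAATTCgagagagtgc
Hsp27, 338 bases before the start (chr3L:9383715-9383742, plus strand): gaaatgtcaaGAAGTTTCtggttctttc
Hsp67Bc, 119 bases before the start (chr3L:9372599-9372626, minus strand): ttggcccccaGAAGGTTCccagttgtct

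Hsp22 had 0 counts in all 30 libraries, heat-shocked heads included. Every exon base of the annotated Hsp22 gene also lies in an exon of CG4456 on the same strand, and 90.1% of the exon bases of CG4456 lie in Hsp22. CG4456 had at most 2 counts in any input library. The authors counted in the union mode, which drops a read that lies in more than 1 gene. Of 367 genes whose every exon base is shared with a gene on the same strand, 364 had 0 counts in every library (99.2%). Of 130 genes whose every exon base is shared only with a gene on the opposite strand, 5 had 0 counts (3.85%). The 0 of Hsp22 is therefore no measure of its RNA, and it could not be tested in any comparison. The other 5 members passed the filter on low counts in all 17 comparisons. None of their exon bases is shared with a gene on the same strand, while 75.9% of those of Hsp67Ba and 3.002% of those of Hsp27 face a gene on the opposite strand. Most genes shared only with the opposite strand kept counts, so reads there were not all dropped. The strand settings are not given, and how cleanly reads of either strand were separated was not examined.

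Heat shock raised all 5 counted members in control heads, by between 4.13-fold and 683-fold. The order of the responses was Hsp27, Hsp26, Hsp23, Hsp67Bc and Hsp67Ba. In control heads, 19.3% of the 10219 genes tested rose, so 5 of 5 stands against that background.

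Hsp27, whose protein works in the nucleus, had input CPM of 25.7, 15.1 and 18.2 in the 3 control basal samples and 13654, 13729 and 13341 after HS. The samples after HS lay close together and far above the basal samples, with no overlap. This is a log2 change of 9.42 (SE 0.23), or 683-fold, with an adjusted p of 3.3e-08 (Benjamini-Hochberg) in the quasi-likelihood test of edgeR. It ranked 9 from the highest of all genes tested, with Hsp26 at 11 and Hsp23 at 12.

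Hsp26, a cytosolic small heat shock protein, had input CPM of 24.2, 14.95 and 13.7 in control basal heads and 9795, 9011 and 9063 after HS. The first control basal sample was the highest of its group for Hsp26, as it was for Hsp27. The log2 change was 9.03 (SE 0.25; 522-fold; adjusted p = 7.6e-08, edgeR). Without that sample the changes were larger, at 9.31 for Hsp26 and 9.64 for Hsp27.

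Hsp23, also cytosolic, had input CPM of 31.4, 28.6 and 28.8 in control basal heads and 5292, 4628 and 4799 after HS. Its basal samples agreed closely, and it rose by 7.36 on the log2 scale (SE 0.10; 164-fold; adjusted p = 1.6e-09, edgeR). Hsp67Bc, the autophagy partner of Starvin, went from 10.2, 9.25 and 10.8 CPM to 360.1, 323.3 and 299.0 CPM. Its change of 5.004 (SE 0.10; 32.1-fold; adjusted p = 6.3e-09, edgeR) was far below those of Hsp23, Hsp26 and Hsp27. Hsp67Ba, which carries the longest coding sequence of the cluster, went from 39.2, 35.6 and 37.8 CPM to 167.5, 151.9 and 151.4 CPM. Its groups did not overlap either, and it rose by 2.05 (SE 0.07; 4.13-fold; adjusted p = 2e-07, edgeR).

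UAS-dTrmt10A heads gave the same order. All 5 members rose there too, against 18.7% of 10352 genes tested that rose. The log2 changes were 9.98 (SE 0.10) for Hsp27, 9.46 (SE 0.14) for Hsp26, 7.13 (SE 0.24) for Hsp23, 4.56 (SE 0.13) for Hsp67Bc and 1.95 (SE 0.09) for Hsp67Ba, with adjusted p of 5.3e-06 or below in edgeR. The basal and HS samples of each member did not overlap. These changes are relative to the bulk of genes: with the total library size in place of TMM, the median of all genes moved to -0.36 in control and -0.37 in UAS-dTrmt10A heads. Rising and falling genes then numbered 479 and 6180 in control heads, against 1976 and 2361 with TMM, and 488 and 6085 in UAS-dTrmt10A heads, against 1938 and 2278. The members still rose, by 1.69 (Hsp67Ba) to 9.06 (Hsp27) and 1.58 to 9.61.

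**Figure D1:**
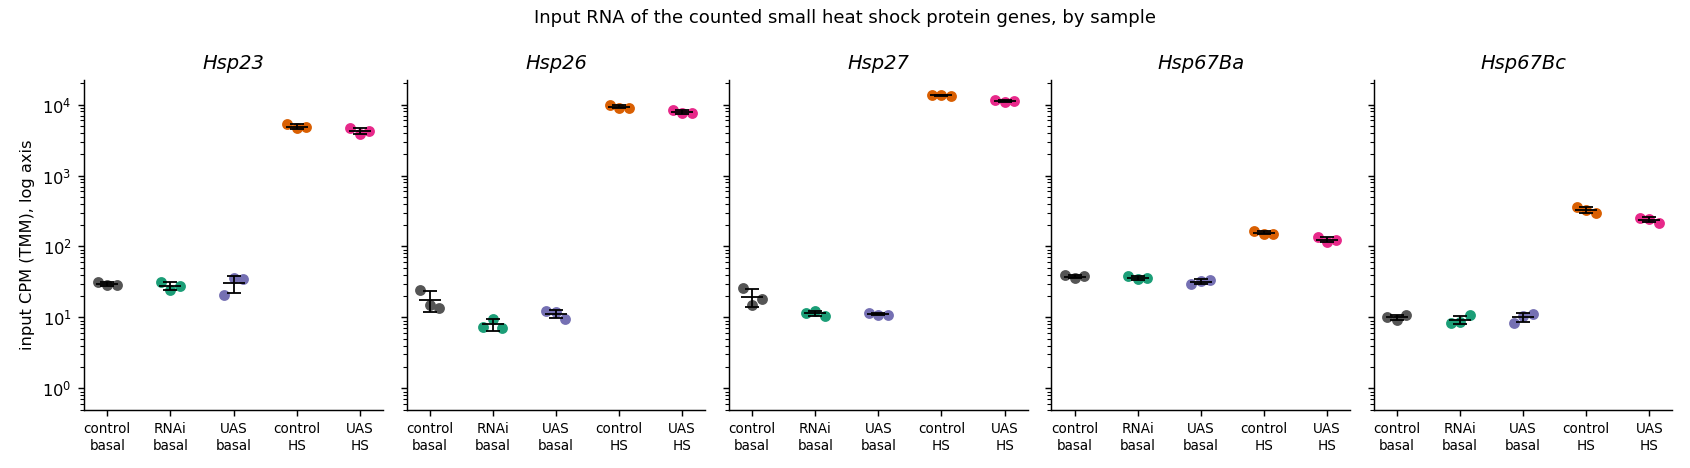
Input CPM (TMM, log axis) of the 5 counted members in each of the 15 input samples, by group, with 3 samples per group as points and the mean and SD in black. Samples after heat shock lie above all basal samples for every member. In control heads the rise runs from 4.13-fold for Hsp67Ba to 683-fold for Hsp27. In UAS-dTrmt10A heads the log2 change runs from 1.95 to 9.98 for the same genes.

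The members exchanged ranks with heat. Per kb of annotated exon, the input level in control basal heads was 33.5 ± 1.78 CPM per kb for Hsp23, 21.7 ± 1.04 for Hsp67Ba, 17.5 ± 5.68 for Hsp26, 12.1 ± 3.34 for Hsp27 and 10.2 ± 0.801 for Hsp67Bc (SD, n = 3). Hsp23 lay above the next member without overlap. The 4 others overlapped with their neighbours in this order. After HS, control heads held 9198 ± 434.1 CPM per kb of Hsp26, 8318 ± 126.2 of Hsp27, 5550 ± 389.9 of Hsp23, 331.8 ± 31.1 of Hsp67Bc and 90.6 ± 5.28 of Hsp67Ba, and no neighbours in this order overlapped. The order was the same and again without overlap in UAS-dTrmt10A HS heads. Hsp27 is annotated with a long 3′ UTR of 870 bases, so its level per kb depends on how much of that length the transcripts carry.

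As a share of the counts of the 5 members in input, Hsp67Ba went from 33.0% ± 2.61 in control basal heads to 0.555% ± 0.0149 after HS, and Hsp27 from 16.96% ± 2.54 to 48.1% ± 1.34. Together the 5 genes made up 0.0128% ± 0.00166 of all input counts in control basal heads and 2.45% ± 0.0878 after HS (SD, n = 3). In UAS-dTrmt10A heads the sum went from 0.0103% ± 0.00128 to 2.00% ± 0.0900. The Hsp70 copies together held 9.57% ± 0.124 of input counts in control HS heads.

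Genes around the cluster responded unequally. asRNA:CR43481, which faces Hsp67Ba, went from 10 to 20 counts in control basal inputs to 557 to 649 counts after HS, a log2 change of 5.86 (SE 0.15; adjusted p = 5.5e-08, edgeR), larger than that of Hsp67Ba itself. CR43482, a noncoding RNA gene downstream of Hsp27 on the same strand (9386112 to 9386463), had 0 counts in all basal inputs and between 185 and 284 counts in HS inputs. Fdx1, a ferredoxin gene beside Hsp67Bc, rose by 2.40 (SE 0.12) in control heads and 1.25 (SE 0.09) in UAS-dTrmt10A heads, and this difference of -1.17 (SE 0.16) passed the test (adjusted p = 0.021, edgeR). CG4461, a family member that lies between Hsp22 and Hsp26, rose by only 0.55 (SE 0.11; adjusted p = 0.0039), and CG4452, at the edge of the region, had a change of -0.13 (adjusted p = 0.19). These neighbours were chosen by position after the files had been seen.

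**Figure D2:**
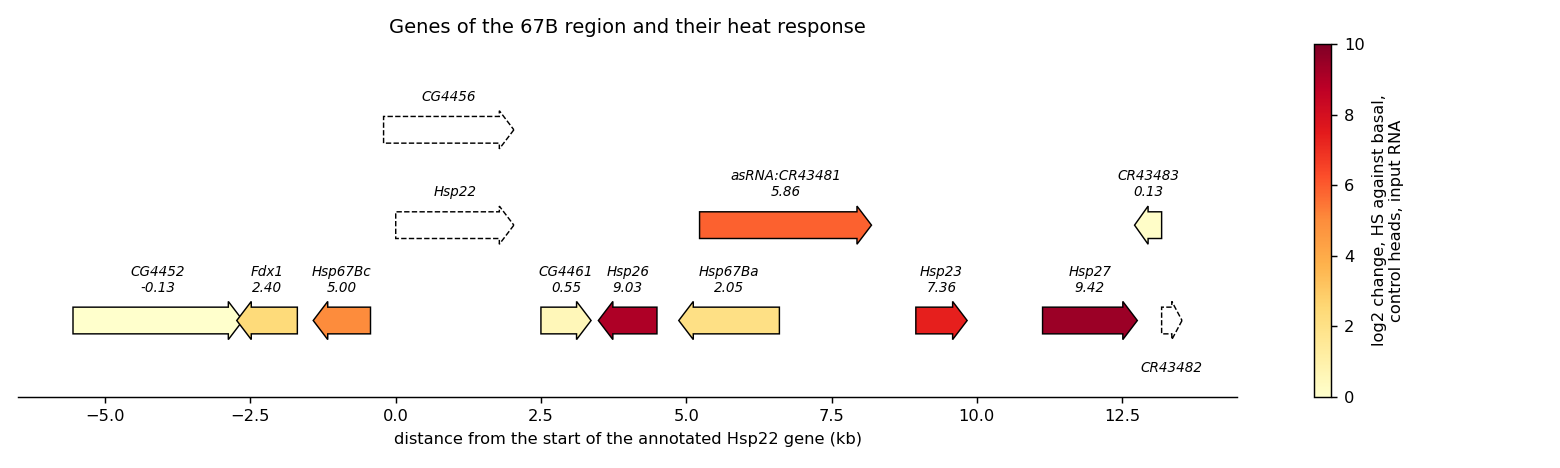
Genes of the 67B region drawn to scale by distance in kb from the start of the annotated Hsp22 gene. Arrows point in the direction of transcription and are coloured by the log2 change of input RNA after heat shock in control heads, printed above each gene. White arrows with dashed outlines were not tested or had 0 counts before heat shock. Hsp27 (9.42) and Hsp26 (9.03) stand beside genes with small changes such as CG4461 (0.55).

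Of 6 other genes of the alpha-crystallin family or cluster, 5 were tested, and all 5 rose in control heads with a median log2 change of 0.55, against a median of -0.0024 over all genes and 7.36 for the 5 counted members. In UAS-dTrmt10A heads 3 of the 5 rose (CG13133, CG14207 and l(2)efl, at 1.93, 0.59 and 0.53). All 14 genes of a list of other chaperones, co-chaperones and Hsf rose in both genotypes, with medians of 7.40 and 7.46. Their responses covered a wide range in control heads, from 0.28 for Hsp60A, a mitochondrial chaperonin, and 0.65 for Hsf itself to 5.70 for DnaJ-1 (Hsp40) and 9.09 for Hsp68, an inducible Hsp70 relative. Above the median stand Hsp68 and the 6 Hsp70 copies, which are near-identical, so that their separate values are uncertain.

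The 5 genes whose log2 CPM over the 15 input libraries was most like the mean of the members were Hsp68 (Pearson r = 0.9986), CR43482 (0.9985), Hsp70Bc (0.9977), stv (0.9977) and Hsp70Aa (0.9974), out of 10642 genes. The libraries fall into basal and HS clusters, so these values mainly describe that split, and all points share libraries and depth. stv encodes Starvin, the partner of Hsp67Bc.

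The response to heat was compared between genotypes by an interaction term. For none of the 5 members did it pass the test, against 0.0379% of 10544 genes (4 genes). The difference of the log2 response, UAS-dTrmt10A minus control, was 0.55 (SE 0.19; unadjusted p = 0.014, adjusted p = 0.22, edgeR) for Hsp27 and -0.46 (SE 0.15; unadjusted p = 0.0092, adjusted p = 0.20) for Hsp67Bc. It was 0.42 (SE 0.24) for Hsp26, -0.24 (SE 0.22) for Hsp23 and -0.11 (SE 0.11) for Hsp67Ba, with adjusted p of 0.45 or above. The 95% intervals of the difference ran from -0.67 to 0.19 for Hsp23 and from -0.32 to 0.10 for Hsp67Ba. So 2 of 5 members had an unadjusted p under 0.05, as did 768 genes in the positive and 766 in the negative direction. DESeq2's Wald test called Hsp27 (0.57, adjusted p = 0.042) and no other member, against 1.74% of genes it called in that direction. Without the first control basal sample the difference for Hsp27 was 0.31 (adjusted p = 0.23, edgeR), and that for Hsp26 was 0.13 (adjusted p = 0.75). The difference for Hsp23 was -0.45 without UAS-dTrmt10A basal replicate 1 and -0.11 without replicate 2 of that group.

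After HS, Hsp27, Hsp67Ba and Hsp67Bc were lower in UAS-dTrmt10A than in control heads. In control HS heads Hsp27 had 13654, 13729 and 13341 CPM, and in UAS-dTrmt10A HS heads 11719, 10823 and 11090 CPM, so that the groups did not overlap. Hsp27 was lower by a log2 change of -0.28 (SE 0.05; adjusted p = 0.020, edgeR). Hsp67Bc, at 360.1, 323.3 and 299.0 against 255.0, 242.6 and 215.7 CPM, was lower by -0.47 (SE 0.09; adjusted p = 0.026). Hsp67Ba, at 167.5, 151.9 and 151.4 against 134.7, 114.9 and 123.4 CPM, was lower by -0.34 (SE 0.08; adjusted p = 0.040). These 3 of 5 members fell against 3.33% of 10287 genes.

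The 2 other members had values in the same direction. Hsp26, at 9795, 9011 and 9063 against 8465, 7589 and 7723 CPM, differed by -0.24 (SE 0.07; adjusted p = 0.066, edgeR), and Hsp23, at 5292, 4628 and 4799 against 4708, 3883 and 4247 CPM, by -0.21 (SE 0.09; adjusted p = 0.18). The Hsp23 samples overlapped between the genotypes, and those of Hsp26, Hsp27, Hsp67Ba and Hsp67Bc did not. Lack of overlap was not particular to the members. Of the other chaperones, Hsp68, Hsp83, Hsp70Aa, Hsp70Ba, Hsp70Bb and Hsp70Bc lay apart and higher. Hsp60A lay apart and lower, and the rest of that list overlapped. The share of all genes without overlap was not computed, so lack of overlap does not set the members apart. The inputs of these groups deviated together weakly by replicate number (r of 0.137, 0.182 and 0.248). Samples of unlike number were not compared, so pairing by number is not shown. With the replicate block all 5 members were lower, with adjusted p from 0.0014 for Hsp67Bc to 0.024 for Hsp23 (edgeR), against 5.63% of genes lower in that fit. Leaving out 1 library weakened the result. No member passed without control HS replicate 1 or without UAS-dTrmt10A HS replicate 2, and 1 passed without control HS replicate 3 or without UAS-dTrmt10A HS replicate 3. Without control HS replicate 2, Hsp67Ba alone of the 3 missed the threshold (adjusted p = 0.051, edgeR).

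None of the 14 other chaperones and none of the 5 tested family members passed this comparison in either direction, and their median log2 differences were 0.06 and 0.15, against -0.28 for the members and -0.0042 over all genes. Among the neighbours, Fdx1 was lower by -1.14 (SE 0.11; adjusted p = 0.00091), and asRNA:CR43481 (-0.20) and CR43482 (-0.33) did not pass. Summed markers moved between these groups as well. The neuron markers ranged from 3449 to 3665 CPM in control HS heads and from 3845 to 4006 CPM in UAS-dTrmt10A HS heads, and the glia markers from 2128 to 2141 and from 2280 to 2376 CPM, in both cases without overlap. The members of the glia list went opposite ways: Gs2 and nrv2 were higher in UAS-dTrmt10A HS heads, alrm was lower without overlap (162.8, 156.1 and 163.0 CPM against 177.3, 168.2 and 174.2 CPM in control HS heads) and repo overlapped. Of the 5 neuron markers, 4 were higher without overlap and nSyb overlapped. The part of these markers in the result was not tested. The UAS-dTrmt10A transgene and the 67B cluster both lie on chromosome 3, so sequence linked to the transgene cannot be told apart from its expression.

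In basal conditions Hsp27 passed the test with UAS-dTrmt10A and Hsp26 with dTrmt10A RNAi, both lower, though which of these genes passed depended on the fit. UAS-dTrmt10A heads held 11.6, 10.9 and 10.8 CPM of Hsp27, all below the control values of 25.7, 15.1 and 18.2. This log2 change of -0.83 (SE 0.17; adjusted p = 0.043, edgeR) passed the test, as did 1.01% of 10206 genes in that direction. Hsp26 stood at 12.4, 11.98 and 9.58 CPM against 24.2, 14.95 and 13.7 and did not pass (-0.66, SE 0.21; adjusted p = 0.17, with 0.025 in DESeq2, which called 1.81% of genes lower). Hsp67Ba differed by -0.23 (adjusted p = 0.15), Hsp23 by 0.04 and Hsp67Bc by -0.01 (adjusted p = 0.95 and 0.99).

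In dTrmt10A RNAi heads Hsp26 stood at 7.21, 9.63 and 6.98 CPM, below every control sample. It was lower by -1.15 (SE 0.21; adjusted p = 0.046, edgeR), a call made for 0.333% of 10225 genes in that direction. Hsp27, at 11.5, 12.5 and 10.6 CPM, was also below every control sample but did not pass in edgeR (-0.77, SE 0.17; adjusted p = 0.090; 0.00018 in DESeq2, which called 0.822% of genes lower). It passed in edgeR with no filter (adjusted p = 0.0015), with the replicate block (0.046) and in a fit of all libraries (0.012). The deviations of control basal and RNAi inputs had r of -0.030, -0.077 and 0.185 by replicate number, so the block is no shown pairing here. Hsp23 (-0.08), Hsp67Ba (-0.05) and Hsp67Bc (-0.12) had adjusted p of 0.86 or above. Of the other chaperones, Hsp70Ab, Hsp70Ba and Hsp70Bb rose, at 2.38, 2.63 and 3.82, and none of the family members passed. The summed Hsp70 copies took between 0.0304% and 0.0348% of input counts in RNAi heads and between 0.00717% and 0.0209% in control heads. The paper reports the opposite direction, lower Hsp70 RNA in basal RNAi brains by RT-qPCR. Tissue and assay differ from the head inputs here, and the cause of the difference was not tested.

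Knockdown and upregulation were compared with the same 3 control samples, so the low values of Hsp26 and Hsp27 in both are not independent. Control basal replicate 1 stood apart in that it held the highest Hsp26 and Hsp27 levels of the basal samples, and its Hsp70 copies took 0.0209% of counts against 0.00853% and 0.00717% in the other control samples. Without it, Hsp26 in RNAi heads was at -0.86 (adjusted p = 0.052, edgeR), and Hsp27 in UAS-dTrmt10A heads at -0.59 (adjusted p = 0.045). Hsp27 in RNAi heads was then at -0.54 (adjusted p = 0.14), and Hsp26 in UAS-dTrmt10A heads moved from -0.66 to -0.35 (adjusted p = 0.30). Both calls were lost in most fits with 1 replicate left out. Hsp27 in UAS-dTrmt10A heads missed the threshold without any 1 of the UAS-dTrmt10A replicates or without control replicate 3. Hsp26 in RNAi heads also missed it without any 1 of the RNAi replicates or without control replicate 2.

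**Figure D3:**
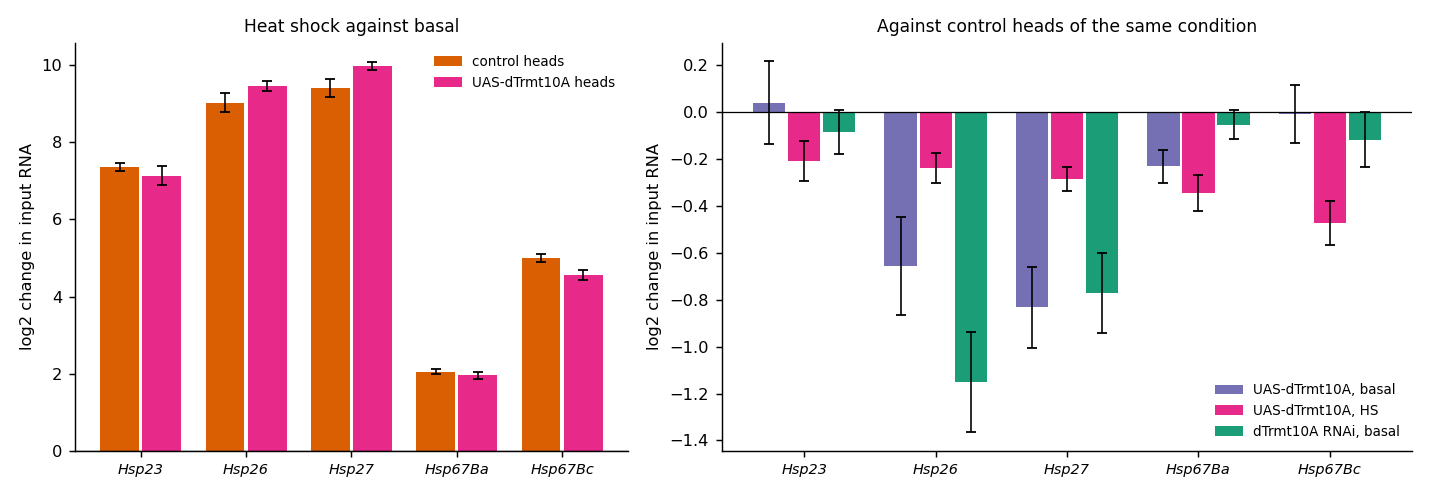
Log2 change of input RNA for the 5 counted members, as bars with SE. The left plot gives heat shock against basal in control and UAS-dTrmt10A heads, from 1.95 to 9.98. The right plot gives UAS-dTrmt10A or dTrmt10A RNAi against control heads of the same condition, where values run from -1.15 for Hsp26 in RNAi heads to 0.04 for Hsp23 in UAS-dTrmt10A basal heads.

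The ratio of IP to input divided the cluster. m6A is laid down mainly by the Mettl3 complex, and an antibody against it enriches fragments that carry it, so a gene above the bulk of genes in IP/input was recovered more than that bulk. The ratio is relative to all genes of the libraries and is not a fraction of methylated RNA. Hsp27 and Hsp67Ba were higher in IP than in input in all 5 groups, and Hsp23 was lower in all 5. In control basal heads, 35.3% of 10080 genes were higher and 34.6% lower.

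Hsp27 had log2 IP/input of 2.10, 2.74 and 2.34 in control basal heads, 2.67, 2.57 and 2.92 in RNAi heads and 2.30, 2.40 and 2.23 in UAS-dTrmt10A basal heads. Control HS heads gave 2.79, 2.72 and 2.88, and UAS-dTrmt10A HS heads 2.47, 2.69 and 2.98. All 15 values lie above 2, or 4.96-fold to 6.95-fold over input as group means. The fitted values were 2.39 (SE 0.16), 2.71 (SE 0.08), 2.32 (SE 0.08), 2.81 (SE 0.06) and 2.695 (SE 0.12) in the same order, with adjusted p of 6.8e-07 or below (edgeR). Hsp27 ranked between 25 and 46 from the top of all genes in these 5 comparisons.

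After HS, Hsp27 alone took 6.83% ± 0.214 of all counts in control HS IP libraries and 5.19% ± 0.583 in UAS-dTrmt10A HS IP libraries, against 1.17% ± 0.00930 and 0.941% ± 0.0291 in input (SD, n = 3). In control basal IP libraries it held 0.0104% ± 0.00133. All 5 members together held 7.64% ± 0.209 of counts in control HS IP libraries, so Hsp27 made up most of it.

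Hsp67Ba had log2 IP/input between 1.00 and 1.41 in the 15 RNA samples. Its fitted values were 1.27, 1.26, 1.04, 1.34 and 1.20 in control basal, RNAi, UAS-dTrmt10A basal, control HS and UAS-dTrmt10A HS heads, with adjusted p of 2.3e-05 or below (edgeR). Its spread within groups was small, with SD from 0.032 to 0.151.

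Hsp23 had values between -0.99 and -0.31 in all samples, and fitted values of -0.51, -0.75, -0.65, -0.69 and -0.70 in the same order of groups, with adjusted p of 0.019 or below (edgeR). Hsp26 had values between -0.58 and 0.04. It was lower in IP in control HS (-0.29, adjusted p = 0.0012) and UAS-dTrmt10A HS heads (-0.34, adjusted p = 0.0032) and did not pass in the 3 basal groups, at -0.35, -0.12 and -0.26. Hsp67Bc was lower in IP in RNAi heads (-0.49, adjusted p = 0.0094), control HS heads (-0.82, adjusted p = 0.00028) and UAS-dTrmt10A HS heads (-0.72, adjusted p = 0.0011), and did not pass in control basal (-0.34) or UAS-dTrmt10A basal heads (-0.28). In the fit without the replicate block, some of these calls rested on 1 library. Without control basal replicate 1, Hsp67Bc was lower in control basal heads (-0.55, adjusted p = 0.010), and without RNAi replicate 3 it missed the threshold in RNAi heads (0.095). Hsp23 missed it in UAS-dTrmt10A basal heads without replicate 2 (0.099) or 3 (0.10). With the block and all replicates, both passed in edgeR. Adjusted p was 0.0015 for Hsp67Bc in RNAi heads and 1.06e-12 for Hsp23 in UAS-dTrmt10A basal heads.

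The counts of members passing stand against similar backgrounds in the other groups. In RNAi heads 2 members were higher and 2 lower, against 35.4% and 38.4% of 10097 genes. In UAS-dTrmt10A basal heads 2 were higher and 1 lower, against 31.1% and 31.3% of 10104 genes. In control HS heads 2 were higher and 3 lower, against 35.0% and 35.7% of 10119 genes, and in UAS-dTrmt10A HS heads 2 and 3, against 33.6% and 35.8% of 10267 genes. As IP and input came from the same RNA, the replicate block is the closer fit, and with it Hsp26 (adjusted p = 0.0094) and Hsp67Bc (0.030) also were lower in control basal heads, as were Hsp26 (0.017) and Hsp67Bc (0.020) in UAS-dTrmt10A basal heads (edgeR). In those fits 37.2% and 37.8% of genes were lower. With the total library size the genes higher and lower were 2703 and 4780 in control HS heads, against 3545 and 3615 with TMM, and 2625 and 4627 in UAS-dTrmt10A HS heads, against 3451 and 3677. With so many genes on either side, a call by itself does not set a member apart. By the size of the value, Hsp27 stands out most among the members and Hsp67Ba next.

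**Figure D4:**
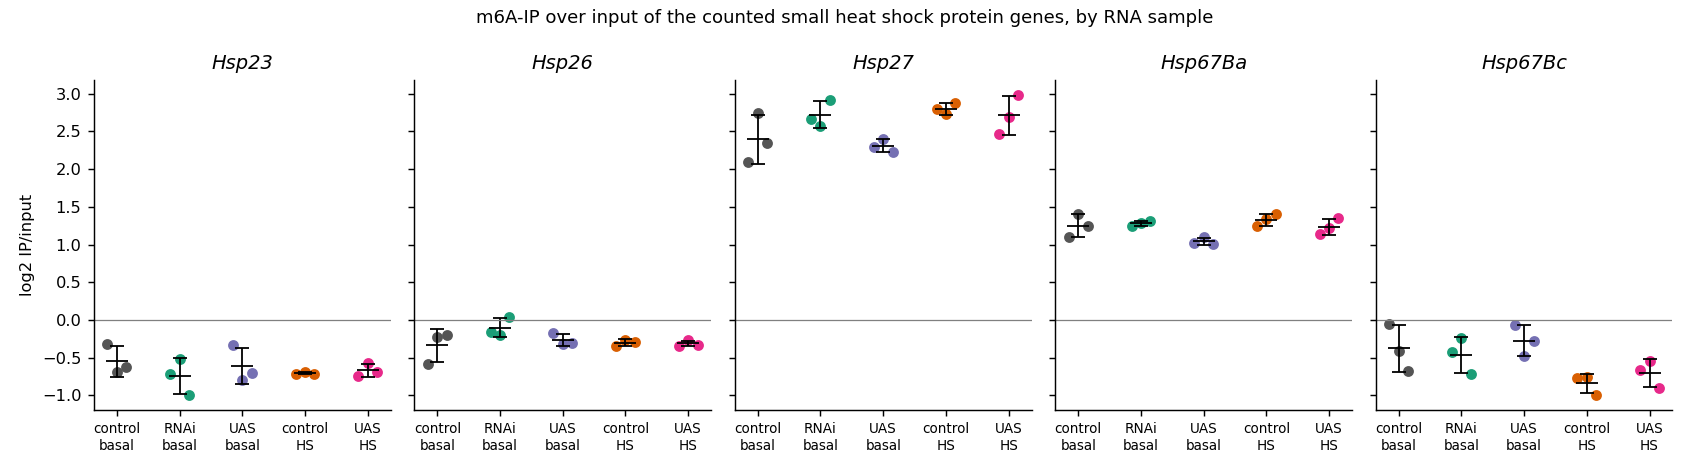
Log2 IP/input of the 5 counted members in each of the 15 RNA samples, by group, with the mean and SD in black and a grey line at 0. Hsp27 lies above 2 and Hsp67Ba at about 1 in every sample (1.00 to 1.41), Hsp23 and Hsp67Bc lie below 0 throughout, and Hsp26 lies just below 0 in all but 1 sample (0.04 in RNAi heads).

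Hsp27 and Hsp67Ba also have the longest transcripts of the 5 counted members, at 1632 and 1733 bases against 884 to 1010 bases for Hsp23, Hsp26 and Hsp67Bc. In control basal heads the median log2 IP/input was -0.26 over 915 genes with 1500 to 1800 exon bases and -0.25 over 861 genes with 800 to 1100 bases. Of the 915, 4 lay above Hsp27, and 95% lay below 1.26, about the level of Hsp67Ba (1.27). The part of length in the values of the members was not tested. Hsp27 has 870 bases of 3′ UTR, the longest of the 6 members, while Hsp67Ba has a coding sequence of 1335 bases. The letters GGACT, a common m6A context, occur 2 times in the Hsp27 transcript, 0 times in that of Hsp67Ba, 1 time each in those of Hsp23 and Hsp26 and 3 times in that of Hsp67Bc. Per kb this places them at percentiles 70.2, 0, 66.1, 59.1 and 97.8 of 9102 transcripts. The letters AAACA occur 2 times each in Hsp27, Hsp67Ba and Hsp23, 1 time in Hsp26 and 3 times in Hsp67Bc, at percentiles 34.3, 31.7, 66, 26 and 82.1 per kb. The part of these letters in IP/input was not tested. The counts are per gene, so the place of any m6A within these transcripts was not analysed here.

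CR43482, which lies just downstream of Hsp27, was higher in IP after HS as well, at 2.34 (SE 0.09) in control and 1.51 (SE 0.13) in UAS-dTrmt10A heads. This difference of -0.77 (SE 0.16) passed the test (adjusted p = 0.042, edgeR), whereas Hsp27 itself differed by -0.06 (SE 0.13).

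Other genes of the family also lay on either side. CG14207 and CG13133 were higher in IP in all 5 groups, at 1.23 and 1.02 in control basal heads. CG4461, a cluster gene, and CG7409 were lower in all 5, at -0.50 and -0.60 in control basal heads. Of the 14 other chaperones, 7 were higher and 1 lower in control basal heads, with a median of 0.35 against -0.34 for the 5 counted members and -0.048 over all genes. stv, at 0.91, and DnaJ-1, at 0.68, were among those higher.

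No change of IP/input between groups passed the test for any member in edgeR's fit without the block. With the RNA sample as block many more genes passed in 4 of the 6 comparisons. After HS in control heads, 0% of 10450 genes were called. The change there was 0.45 (SE 0.24; adjusted p = 0.61) for Hsp27 and -0.45 (SE 0.21; adjusted p = 0.59) for Hsp67Bc, with the other members between -0.16 and 0.10. At an unadjusted p under 0.05, 472 genes were higher and 402 lower, Hsp67Bc among the lower. With the block 180 genes were called and no member, with adjusted p of 0.060 for Hsp67Bc and 0.078 for Hsp27. DESeq2's Wald test called no member in any of the 6 comparisons. It called 20 genes here, 260 for HS in UAS-dTrmt10A heads, 246 and 368 for UAS-dTrmt10A against control in basal and HS heads, and 0 for RNAi and for the difference between genotypes.

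After HS in UAS-dTrmt10A heads, 0.0378% of 10588 genes were called (4 genes), and the members lay between -0.40 (Hsp67Bc, adjusted p = 0.33) and 0.41 (Hsp27, adjusted p = 0.22). With the RNA sample as replicate block, Hsp27 rose by 0.41 (adjusted p = 0.025) and Hsp67Bc fell by 0.42 on the log2 scale (adjusted p = 0.014, edgeR). That fit called many more genes, 12.5% higher and 6.10% lower. By sample, Hsp27 had 2.30, 2.40 and 2.23 in basal and 2.47, 2.69 and 2.98 in HS samples, and Hsp67Bc -0.06, -0.48 and -0.27 in basal and -0.66, -0.54 and -0.90 in HS samples, without overlap for either gene. Of the other chaperones, Hsp70Ab and Hsp70Bb fell in this comparison, by 0.98 and 0.85 on the log2 scale. The difference of the change between genotypes was between -0.12 and 0.16 for all 5 members, with adjusted p of 1.00 and 0% of 10753 genes called. At an unadjusted p under 0.05 it held 170 genes higher and 129 lower, and no member, and with the block 0 genes were called.

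Between genotypes no change of IP/input passed for any member. UAS-dTrmt10A against control heads in basal conditions gave values from -0.20 (Hsp67Ba, SE 0.11) to 0.11 (Hsp26, SE 0.29), with 0% of 10368 genes called in edgeR. Before adjustment, 374 genes had p under 0.05 upward and 875 downward. With the block, 152 genes were called higher and 674 lower, and no member. After HS the same comparison gave values from -0.08 to 0.16, with 0.945% of 10476 genes called (99 genes), and with the block 751 genes higher and 555 lower, and no member. dTrmt10A RNAi against control heads gave values from -0.23 (Hsp23, SE 0.20) to 0.33 (Hsp27, SE 0.20), with 0% of 10343 genes called in edgeR. Before adjustment, 87 genes had p under 0.05 upward and 217 downward, and with the block 3 genes were called and no member. In the fit without the block, the 95% intervals for Hsp27 ran from -0.45 to 0.36 for UAS-dTrmt10A in basal heads, from -0.32 to 0.20 for UAS-dTrmt10A after HS and from -0.05 to 0.72 for RNAi.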

How the data were processed

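Input and m6A-IP libraries of 3 replicates in 5 groups (30 libraries) were analysed. The authors trimmed reads with Trim Galore, aligned them with STAR 2.7.3a to dm6 and counted reads per gene with summarizeOverlaps in union mode, and the deposited table holds raw counts. Strand, multi-mapping and duplicate settings are not given in the sources used here. The labels give 1 m6A antibody and the study's methods give more than 1, so antibody was no term of any fit.

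Genes passed filterByExpr (minimum count 10, minimum total 15) and were tested over all genes passing with edgeR 4.0.16 (quasi-likelihood F-test, TMM, Benjamini-Hochberg, adjusted p under 0.05, R 4.3.3), fitting only the groups compared. IP/input changes were contrasts of group and assay, and log2 IP/input per sample used a prior count of 2. p-values set each difference against the spread between pooled-head replicates. DESeq2 1.42.0, other scalings and filters, a fit of all libraries, a replicate block and each replicate left out were alternatives. The fits were tested on simulated data.

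IP and input of a replicate came from the same RNA, and deviations from the group means correlated (r from 0.162 to 0.396), so the RNA sample paired them. Control HS and UAS-dTrmt10A HS inputs correlated by replicate number (0.137, 0.182 and 0.248). In the other input comparisons at least 1 correlation was under 0.1, and the number was taken as a name.

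All 6 members were named in every comparison. The 5 genes most like their mean log2 CPM were named by rule, and listed genes only where a statement turns on them or where 5 or fewer passed. The members and gene lists were chosen with earlier results of these data known. Sequences came from the RefSeq assembly and positions from the Ensembl annotation.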

Additional observations from a re-analysis of the deposited data

How the results depend on the processing

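Of 1090 values of single members under the alternatives, 993 kept direction and side of the threshold, 26 lost the call, 22 gained it and 49 changed sign, and 0 of the last were called. In all 7 other fits and in all fits with 1 replicate left out, all 5 members rose with HS in both genotypes. DESeq2's Wald test called 1 member in the difference of the HS response, 2 with UAS-dTrmt10A in basal heads and 2 with RNAi. For RNAi, no filter, the replicate block and a fit of all libraries also gave 2 (Hsp27 at -0.77, -0.75 and -0.77). The replicate block gave 5 for UAS-dTrmt10A after HS, 5 for IP against input in control basal and in UAS-dTrmt10A basal heads, and 2 for the HS change of IP/input in UAS-dTrmt10A heads, and it changed no other count by over 1.5 times. No filter gave 5 for IP against input in control basal heads. With 1 replicate left out, counts ranged from 0 to 1 for UAS-dTrmt10A in basal heads and for RNAi, from 0 to 3 for UAS-dTrmt10A after HS, from 3 to 4 for IP against input in control basal and RNAi heads, and from 2 to 3 in UAS-dTrmt10A basal heads. In the fit of all libraries Hsp27 missed the threshold for UAS-dTrmt10A after HS (adjusted p = 0.16), as did Hsp26 for IP against input in both HS groups (0.067 and 0.059, edgeR). The cause was not tested.

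Changes of IP/input near 0 changed sign with the total library size in place of TMM: after HS, Hsp26 (-0.063) and Hsp67Ba (-0.046) in control and Hsp67Ba (-0.062) in UAS-dTrmt10A heads; in the difference between genotypes, Hsp67Ba (-0.016) and Hsp67Bc (-0.046); with UAS-dTrmt10A in basal heads, Hsp23 (0.00067) and Hsp27 (0.083); with RNAi, Hsp67Ba (-0.037). With UAS-dTrmt10A after HS, Hsp26 changed sign with DESeq2 size factors (-0.037), total library size (-0.0037), the Wald test (-0.037), no filter (-0.00053), at least 10 counts in every library (-0.046) and all libraries (-0.0094), and Hsp23 with at least 10 counts (-3.1e-05).

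With 1 replicate left out, uncalled values near 0 changed sign as well. For changes of IP/input after HS the ranges were -0.20 to 0.0040 (Hsp23) and -0.040 to 0.17 (Hsp26) in control heads and -0.11 to 0.066 (Hsp23) in UAS-dTrmt10A heads, and for their difference -0.18 to 0.038 (Hsp26), -0.18 to 0.15 (Hsp27) and -0.12 to 0.22 (Hsp67Bc). With UAS-dTrmt10A they were -0.22 to 0.018 (Hsp23), -0.042 to 0.16 (Hsp26), -0.21 to 0.10 (Hsp27) and -0.099 to 0.27 (Hsp67Bc) in basal heads, and -0.026 to 0.073 (Hsp23), -0.072 to 0.014 (Hsp26) and -0.29 to 0.047 (Hsp27) after HS. With RNAi they were -0.044 to 0.097 (Hsp67Ba) and -0.28 to 0.079 (Hsp67Bc). For input RNA they were -0.075 to 0.25 (Hsp23) and -0.11 to 0.10 (Hsp67Bc) with UAS-dTrmt10A in basal heads and -0.19 to 0.0034 (Hsp23) with RNAi.

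CPM of total library size, an alternative chosen after seeing the data, moved 18 of 25 group means by more than 1 SD, and in control HS heads it gave 4248 for Hsp23, 8041 for Hsp26, 11747 for Hsp27, 135.8 for Hsp67Ba and 283.4 for Hsp67Bc. A prior count of 0.5 moved 0 of 25 mean log2 IP/input values beyond 1 SD. The spread between basal samples and the 3 replicates per group limit the basal comparisons.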
